A study of Mus musculus with 6 samples.

Results

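The ADAMTS proteases are secreted zinc metalloproteases that carry thrombospondin type 1 repeats. Those described here are the products of 9 mouse genes, Adamts1, Adamts2, Adamts4, Adamts5, Adamts7, Adamts9, Adamts10, Adamts12 and Adamts15. Their probe sets were those to which the platform annotation gives exactly 1 gene symbol equal to 1 of these names. That rule found 16 of the 45037 probe sets tested, which measured 8 of the 9 genes among 18193 genes in all. Adamts2, the procollagen N-proteinase of fibrillar collagens, matched no probe set and is not analysed here. Probe sets of 1 gene were averaged into a single value.

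RNA came from cells that the labels call endothelial, isolated from Matrigel plugs, gels of basement membrane protein, carried in the peritoneal cavity by Balb/c nude mice. In the MFAP5 group the plugs held recombinant microfibrillar-associated protein 5, a glycoprotein of elastic microfibrils (3 samples), and in the Control group they lacked it (3 samples). Balb/c nude mice lack a thymus and therefore most T cells, and both groups share that strain. Animal age, the amount of MFAP5, the time in the animal and whether each sample came from its own mouse are not stated in the labels, so p-values measure only the spread between these samples, which may be technical. Each sample was hybridized to 1 Affymetrix mouse expression array.

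ADAMTS proteases cut proteins of the extracellular matrix. ADAMTS1, ADAMTS4, ADAMTS5, ADAMTS9 and ADAMTS15 cleave the large chondroitin sulfate proteoglycans versican and aggrecan, ADAMTS7 and ADAMTS12 form a pair known for degrading cartilage oligomeric matrix protein, and ADAMTS10 is a poor protease that binds fibrillin microfibrils. Furin-type convertases remove the propeptide of most members, TIMP3 inhibits several, and the endocytic receptor LRP1 clears some from the matrix. In blood vessels, ADAMTS1 and ADAMTS9 are known as inhibitors of angiogenesis.

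Promoter sequences are shown because Adamts1, the single gene of the 8 that passed the test, can be set beside other measured members. RefSeq (build GRCm38.p6) gave a promoter entry for 4 of the 9 genes, Adamts1, Adamts2, Adamts9 and Adamts12, and the 3 measured ones are printed 5′ to 3′ as the 250 bases before an annotated transcript start. Capitals mark matches, on either strand, to TATAAA (the TATA box), TGACG (the core of the cyclic AMP response element), TGANTCA (the AP-1 element) and GGGCGG (the GC box); no matches of different motifs overlapped in these windows. The Adamts1 window is chr16:85803114-85803363 on the minus strand, the Adamts9 window chr6:92943535-92943784 on the minus strand and the Adamts12 window chr15:11064523-11064772 on the plus strand.
Adamts1: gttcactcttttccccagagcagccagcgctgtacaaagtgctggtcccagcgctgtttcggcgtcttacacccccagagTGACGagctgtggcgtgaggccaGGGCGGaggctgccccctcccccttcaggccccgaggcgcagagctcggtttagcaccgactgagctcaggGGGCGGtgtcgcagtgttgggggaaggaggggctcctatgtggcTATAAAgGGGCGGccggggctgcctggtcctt
Adamts9: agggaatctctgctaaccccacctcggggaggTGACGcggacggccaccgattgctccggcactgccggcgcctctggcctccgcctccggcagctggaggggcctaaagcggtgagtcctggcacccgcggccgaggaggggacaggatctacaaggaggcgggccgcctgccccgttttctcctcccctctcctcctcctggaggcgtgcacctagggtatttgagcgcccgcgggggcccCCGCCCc
Adamts12: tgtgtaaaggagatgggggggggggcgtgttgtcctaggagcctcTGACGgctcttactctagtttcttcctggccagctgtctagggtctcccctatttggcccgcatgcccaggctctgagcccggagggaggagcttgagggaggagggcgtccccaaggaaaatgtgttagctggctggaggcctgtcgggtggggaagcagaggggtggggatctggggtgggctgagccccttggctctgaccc
TATAAA occurred once in the Adamts1 window, starting 32 bases before the start, and in neither of the others; 12.4% of 32851 promoter windows of the same length hold it. TGACG occurred once in each of the 3 windows, starting 170, 218 and 205 bases before the start of Adamts1, Adamts9 and Adamts12, and not in the window of Adamts2; 17.8% of all windows hold it. GGGCGG occurred 3 times in the Adamts1 window, once in that of Adamts9, 5 times in that of Adamts2 and not in that of Adamts12, against 32.7% of windows with at least 1 match. TGANTCA, held by 6.75% of windows, was in none of the 4 windows, and TATAAA was not in that of Adamts2. These matches describe letters in a window and not bound sites.

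The deposited values were relative. For every probe set the 6 values had a median of 0, which tells arrays apart and carries no level, and the log base was taken as 2, on which every fold below rests. Levels of different genes could therefore not be ordered, and whether a gene lay above background could not be read. For the same reason the labelled endothelial identity could not be checked by level. All 13 endothelial markers had probe sets, and limma called none of them different. At an unadjusted p under 0.05, 4 of them were lower and 0 higher, against 14.4% and 5.33% of all genes. The median log2 difference of the 13 was -0.20. The endothelial genes Tek and Pecam1 had differences of -0.75 (adjusted p = 0.0592) and -0.71 (adjusted p = 0.132). Both passed without Control replicate 1, at adjusted p of 0.0340 and 0.0195, and with array weights, at 0.0104 and 0.00796. In those settings all genes called lower rose too, from 508 to 1914 and 2879. Tek also passed with an eBayes trend (0.0459) and Pecam1 with the replicate block (0.0309). Array medians lay between -0.026 and 0 in the MFAP5 arrays and between -0.012 and 0.049 in the Control arrays. Control replicate 1 stood apart from the other Control arrays, with a correlation across probe sets of -0.028 with replicate 2 and 0.020 with replicate 3, which correlated at 0.69 with each other.

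The comparison of MFAP5 with Control plugs asked which ADAMTS transcripts differed between cells from plugs with and without the protein. Adamts1 was 2.66-fold higher and was the only member past the threshold (limma, adjusted p under 0.05 over all genes), against 0.759% of all genes called higher. No member was called lower, where 2.79% of all genes were, and none was lower at an unadjusted p under 0.05, as 14.4% of all genes were. At that looser limit 3 of the 8 were higher, against 5.33% of all genes. Adamts4 and Adamts15 had differences of 0.97 and 0.83 on the log2 scale and missed the threshold, with MFAP5 replicate 3 nearer to the Control arrays in both. Without that array both passed, making 3 of 8 members called higher. In that setting 4 of the 16 ADAMTS probe sets and 364 of all 45037 were called higher. Over the samples left out in turn, 1 to 3 members and from 14 to 760 of all genes were called higher. Of the 8 genes 7 had a positive difference, against 34.4% of all genes, and the median difference of the 8 was 0.29 where that of all genes was -0.08. In 3 of the 8 genes every MFAP5 value lay above every Control value, as in 6.51% of all genes.

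**Figure D1:**
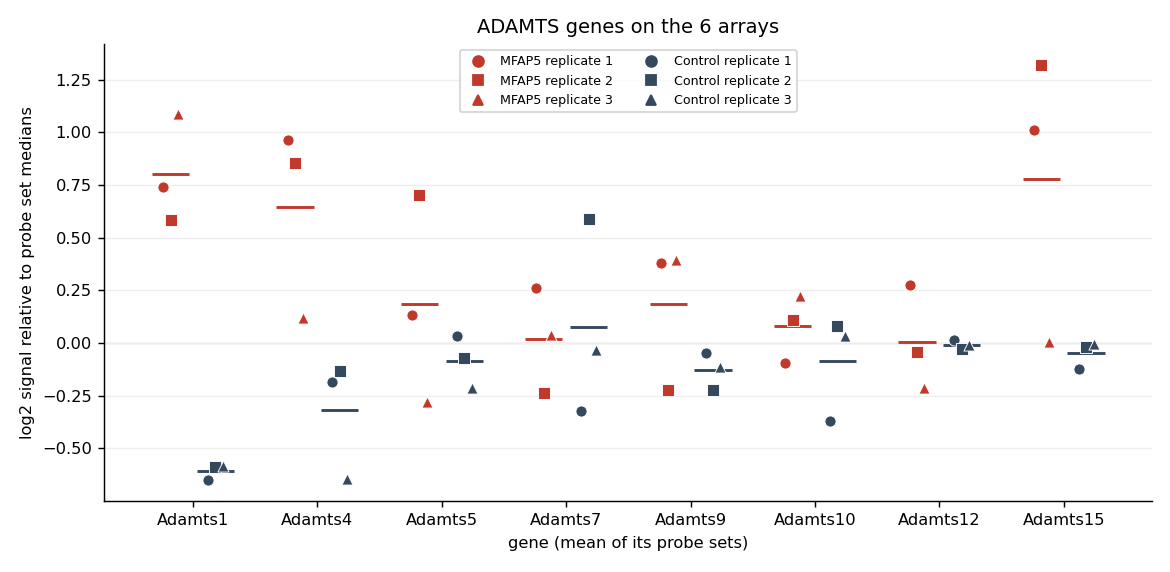
Log2 signal relative to probe set medians (vertical axis) of the 8 measured ADAMTS genes in 3 MFAP5 arrays (red, left) and 3 Control arrays (dark, right), with replicate numbers as symbols and bars at the group means. The group means differ by more than 1 log2 unit for Adamts1 alone, and the MFAP5 triangle of Adamts15 lies beside the Control values.

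Adamts1 encodes a protease of versican and aggrecan whose transcript is known to be induced in inflammation and ovulation. Its relative signals were 0.74, 0.59 and 1.09 in MFAP5 replicates 1, 2 and 3, against -0.65, -0.59 and -0.59 in Control replicates 1, 2 and 3. All 3 MFAP5 arrays were high and the Control arrays lay close together, with a gap between the groups wider than the range within either. The log2 difference was 1.41 ± 0.14 (SE, n = 3 per group; limma adjusted p = 0.00121), a fold of 2.66 with a 95% interval of 2.14 to 3.30. With any 1 sample left out the difference stayed between 1.27 and 1.52 and adjusted p between 0.00118 and 0.0117. Adamts1 rests on a single probe set, 1450716_at, which also passed in the fit over probe sets (adjusted p = 0.00265), and it missed the threshold when the spread was not shared between genes (unmoderated adjusted p = 0.0921).

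Adamts4 encodes aggrecanase 1, which cleaves aggrecan and versican. The gene's relative signals were 0.97, 0.86 and 0.12 in MFAP5 replicates 1, 2 and 3, against -0.19, -0.13 and -0.64 in the Control replicates. MFAP5 replicates 1 and 2 were high, replicate 3 lay nearer to the Control arrays, and the groups did not overlap. The log2 difference was 0.97 ± 0.23 (SE, n = 3 per group; limma adjusted p = 0.0620), with a 95% interval of 0.43 to 1.498. Both probe sets had the same pattern: 1452595_at had a difference of 1.06 (adjusted p = 0.0649) and 1455965_at of 0.88 (adjusted p = 0.0941). Without MFAP5 replicate 3 the difference of Adamts4 was 1.23 and passed (adjusted p = 0.00926), and with each of the other 5 samples left out it lay between 0.80 and 1.06 and did not pass. With array weights Adamts4 also passed, at 1.18 (adjusted p = 0.00897).

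Adamts15 encodes a further versican-cleaving member. Its single probe set, 1427056_at, read 1.01, 1.32 and 0.0041 in MFAP5 replicates 1, 2 and 3, against -0.12, -0.020 and -0.0041 in the Control replicates. Replicates 1 and 2 of the MFAP5 group were high and replicate 3 was not: it and Control replicate 3 were the middle pair of the 6 values, which centring places at equal distance on either side of 0. The log2 difference of Adamts15 was 0.83 ± 0.29 (SE, n = 3 per group; limma adjusted p = 0.168), with a 95% interval of 0.17 to 1.49. Without MFAP5 replicate 3 it was 1.22 and passed (adjusted p = 0.00292), and without replicate 2 it was 0.56 (adjusted p = 0.339). With array weights Adamts15 was at 0.84 and passed (adjusted p = 0.0478).

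**Figure D2:**
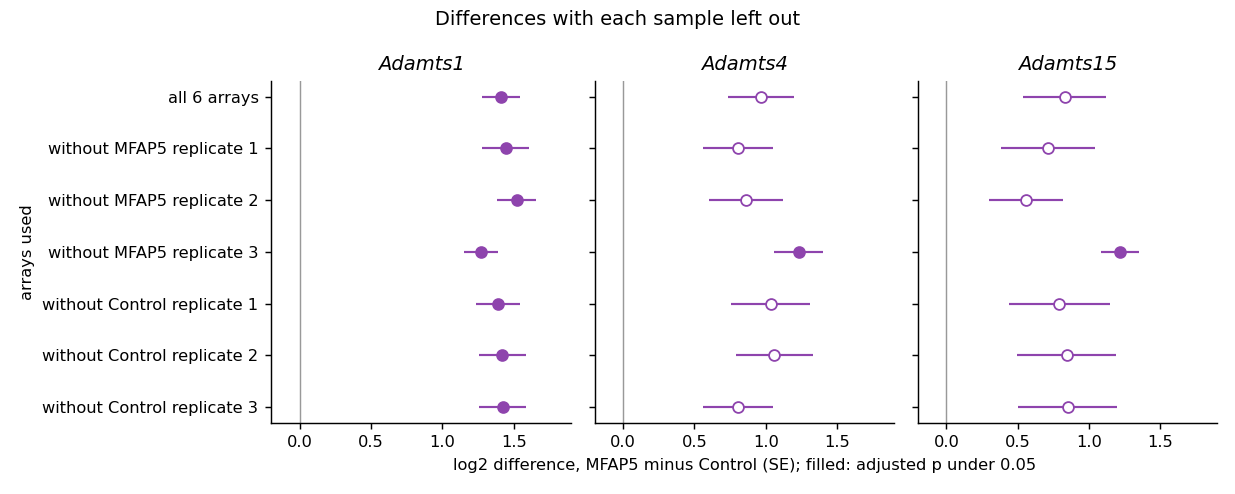
Log2 difference, MFAP5 minus Control, with its SE (horizontal axis) of Adamts1, Adamts4 and Adamts15 on all 6 arrays and with each sample left out (rows); filled points have a limma adjusted p under 0.05. Adamts1 passed in each row, at 1.27 to 1.52, while Adamts4 and Adamts15 passed only without MFAP5 replicate 3, at 1.23 and 1.22.

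The remaining proteoglycan-cleaving members did not pass. Adamts5, which encodes aggrecanase 2, the main aggrecanase of mouse cartilage, had gene values of 0.13, 0.70 and -0.28 in MFAP5 replicates 1, 2 and 3, against 0.033, -0.073 and -0.22 in the Control replicates. Replicate 2 of the MFAP5 group was the highest and replicate 3 the lowest of the 6 arrays, so that the Control range lay within that of MFAP5. The difference was 0.27 ± 0.22 (SE, n = 3 per group; limma adjusted p = 0.524, 95% interval -0.24 to 0.77), and without MFAP5 replicate 2 it was 0.010. Of its 4 probe sets, 1422561_at and 1450658_at carry the same accession and both had a difference of 0.15, while 1456404_at and 1456969_at had 0.47 and 0.31. None of the 4 passed.

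Adamts9 encodes a protease that acts on versican and is known as an inhibitor of angiogenesis made by microvascular endothelium. The gene's values were 0.38, -0.22 and 0.39 in MFAP5 replicates 1, 2 and 3, against -0.046, -0.22 and -0.12 in the Control replicates, with MFAP5 replicate 2 as low as the lowest Control array. Its difference was 0.31 ± 0.17 (SE, n = 3 per group; limma adjusted p = 0.345, 95% interval -0.08 to 0.70), and without MFAP5 replicate 2 it was 0.51. The 3 probe sets of Adamts9 disagreed. The groups did not overlap on 1430352_at, at a difference of 0.60 (adjusted p = 0.165), and they overlapped on 1431399_at at 0.47 (adjusted p = 0.297). On 1437785_at the difference was -0.14 (adjusted p = 0.771), with MFAP5 replicate 2 at -0.72.

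The 2 genes of the COMP-degrading pair had differences near 0. Adamts7 is known for its part in the migration of vascular smooth muscle cells. Its single probe set read 0.26, -0.24 and 0.035 in MFAP5 replicates 1, 2 and 3, against -0.32, 0.59 and -0.035 in the Control replicates, so the Control arrays held both its lowest and its highest value. The difference of Adamts7 was -0.06 ± 0.23 (SE, n = 3 per group; limma adjusted p = 0.911, 95% interval -0.58 to 0.46), and without Control replicate 2 it was 0.20. Adamts12 had 0.27, -0.043 and -0.21 in MFAP5 replicates 1, 2 and 3, against 0.012, -0.029 and -0.012 in the Control replicates. The MFAP5 values of Adamts12 were spread on both sides of closely spaced Control values, and the difference was 0.02 ± 0.13 (adjusted p = 0.962, 95% interval -0.29 to 0.32). The probe sets of Adamts12, 1439827_at and 1446666_at, were at 0.07 and -0.04, and neither passed.

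Adamts10, the gene of the microfibril-binding member, had probe sets that differed in sign. Its gene values were -0.094, 0.11 and 0.22 in MFAP5 replicates 1, 2 and 3, against -0.37, 0.083 and 0.032 in the Control replicates, and the groups overlapped. The gene difference was 0.17 ± 0.15 (SE, n = 3 per group; limma adjusted p = 0.557, 95% interval -0.17 to 0.50). Probe set 1427139_at alone read 0.28, 0.20 and 0.47 in MFAP5 replicates 1, 2 and 3, against -0.34, -0.20 and -0.31 in the Control replicates. On it the groups were clearly apart, and it was the only probe set besides that of Adamts1 to pass, at a difference of 0.60 ± 0.12 (SE, n = 3 per group; adjusted p = 0.0381 over all probe sets). These 2 of 16 ADAMTS probe sets stand against 1.56% of all probe sets called higher; none of the 16 was called lower, where 1.72% of all probe sets were. The other probe set, 1441309_at, had a difference of -0.27 ± 0.23 (adjusted p = 0.569). The call of 1427139_at was lost with each of 5 samples left out in turn, with adjusted p between 0.0636 and 0.159, and held without Control replicate 1 (adjusted p = 0.0307).

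**Figure D3:**
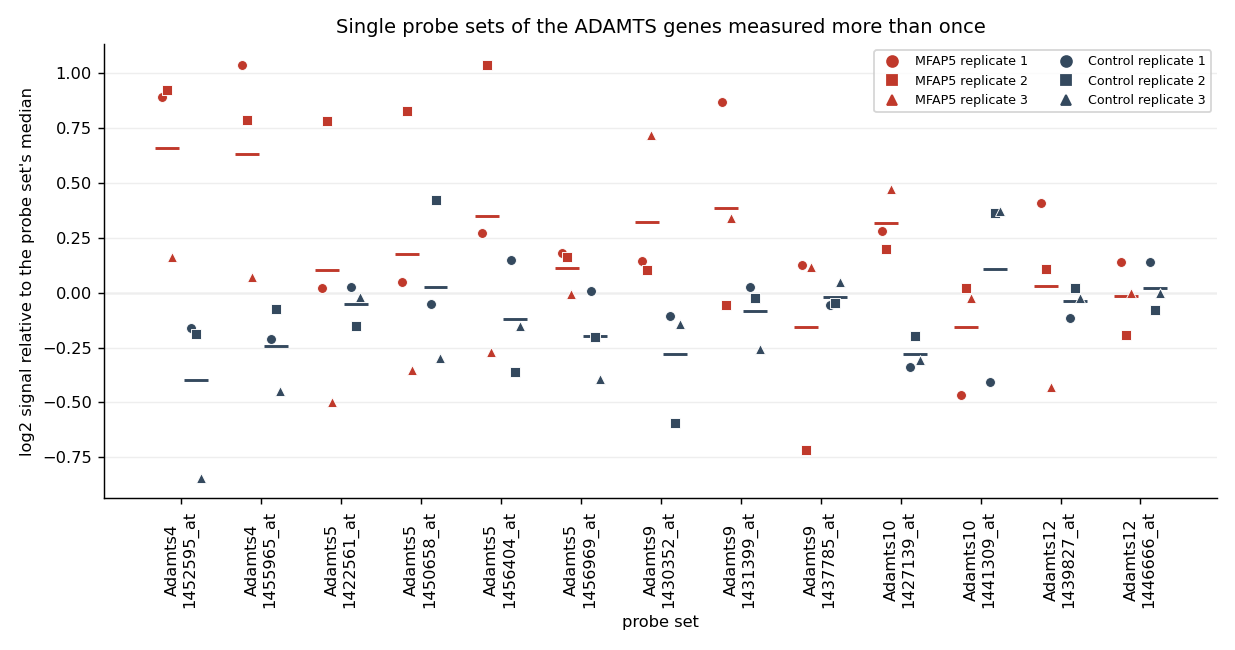
Log2 signal relative to each probe set's own median (vertical axis) for the 13 probe sets of the 5 ADAMTS genes measured more than once, in MFAP5 arrays (red, left) and Control arrays (dark, right), with bars at the group means. The 2 probe sets of Adamts4 look alike, while those of Adamts9, Adamts10 and Adamts12 include differences of either sign, small for Adamts12 (0.07 and -0.04).

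The MFAP5 arrays thus did not rank the members alike. MFAP5 replicate 3 was the highest of the 6 arrays for Adamts1, Adamts9 and Adamts10 and the lowest of the MFAP5 arrays for Adamts4, Adamts5, Adamts12 and Adamts15. MFAP5 replicate 2 was the highest of the 6 for Adamts5 and Adamts15. Replicate 3 was also the MFAP5 array in which adipocyte markers were least low. The median over the 10 measured adipocyte markers was -4.11, -2.64 and -0.96 in MFAP5 replicates 1, 2 and 3, against 1.16, 1.35 and 1.26 in the Control replicates. Of these, 10 of 10 were lower without overlap and 9 of them passed the threshold. Over all genes 17.8% were lower without overlap and 2.79% were called lower. The part of adipocyte markers in the differences described here was not tested, and in such bulk samples fewer cells of a type and less RNA per cell cannot be told apart. Of 7 neutrophil markers 3 fell, S100a8, S100a9 and Mmp8, of which Mmp8 missed the threshold without MFAP5 replicate 1 (adjusted p = 0.0679) or Control replicate 2 (adjusted p = 0.0923). The neutrophil list had medians of -0.16, -0.26 and -0.014 in the MFAP5 replicates, against 0.18, 0.71 and 0.45 in the Control replicates. The difference between 3′ and 5′ probe sets of beta-actin, a measure of RNA quality, was 0.14, 0.082 and 0.036 in the MFAP5 replicates, against -0.0048, -0.053 and -0.032 in the Control replicates (exact permutation test, two-sided, p = 0.1, the smallest possible with 3 against 3). For Gapdh that difference was 0.086, -0.038 and 0.034 in the MFAP5 replicates, against -0.16, 0.033 and -0.033 in the Control replicates. The groups overlapped for Gapdh (exact permutation test, two-sided, p = 0.4). The mean of the spike-in probe sets was -0.32, 0.64 and 0.65 in Control replicates 1, 2 and 3. In the MFAP5 replicates that mean was -0.038, -0.0078 and -0.0065, within the Control range.

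Cell types that express ADAMTS genes in other tissues were looked at by their markers. Of 8 fibroblast markers 1 fell, against 2.79% of all genes called lower. That marker was Pi16, at a log2 difference of -0.93 ± 0.19, and the list median was 0.01. Its call was lost without MFAP5 replicate 2 or 3 or Control replicate 2 or 3 (adjusted p = 0.0928, 0.0753, 0.138 and 0.128), with quantile normalization (0.0712) and with the spike-in covariate (0.107). At an unadjusted p under 0.05, 3 of the 8 were lower and 1 higher, against 14.4% and 5.33% of all genes. Clec3b passed without MFAP5 replicate 1 (limma adjusted p = 0.0164) and with array weights (0.0202), and Mfap4 with array weights (0.0478). Of 10 markers of pericytes and smooth muscle 1 fell, Kcnj8 at -0.90 ± 0.15 (SE, n = 3 per group; limma adjusted p = 0.0336 for Pi16 and 0.0145 for Kcnj8), with a median of -0.07. The call of Kcnj8 was lost without Control replicate 2 or 3 (adjusted p = 0.0705 and 0.0752) and with the spike-in covariate (0.0569). At an unadjusted p under 0.05, 3 of these 10 markers were lower and 0 higher. Abcc9 passed without MFAP5 replicate 3 (-1.04, limma adjusted p = 0.00767) and with array weights (0.0237). Rgs5 passed without Control replicate 1 (-0.49, adjusted p = 0.0494) and with array weights (0.0135). Among 7 mesothelial, 7 macrophage and 5 skeletal muscle markers limma called none. At an unadjusted p under 0.05, 1 mesothelial and 2 skeletal muscle markers were lower and none higher. Of the macrophage markers 1 was lower (Cd68, -0.43) and 1 higher (Itgam, 0.36). Over all genes 14.4% were lower and 5.33% higher at that limit. The medians of the 3 lists were -0.11, -0.08 and -0.31. These medians moved with the arrays used: over samples left out they ran from -0.19 to 0.02 for mesothelial, from -0.19 to -0.0058 for macrophage and from -0.46 to -0.14 for skeletal muscle markers. The pericyte and smooth muscle median ran from -0.14 to 0.06 and the fibroblast median from -0.05 to 0.06.

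On mouse chromosome 16 Adamts1 and Adamts5 are adjacent protein-coding genes in the RefSeq annotation, as are Adamts15 and Adamts8 on chromosome 9. The signal of Adamts1 minus that of Adamts5 was 0.61, -0.12 and 1.37 in MFAP5 replicates 1, 2 and 3, against -0.68, -0.51 and -0.37 in the Control replicates. The MFAP5 values lay above all Control values, with a group difference of 1.14 (exact permutation test, two-sided, p = 0.1, the smallest possible). Adamts15 minus Adamts8 was 0.98, 1.396 and 0.18 in the MFAP5 replicates, against -0.089, -0.75 and -0.31 in the Control replicates, a difference of 1.23 (exact permutation test, two-sided, p = 0.1). In both neighbouring pairs the groups were apart, in a design that cannot reach a p under 0.1. The gene with the larger difference was put first in each pair, so the positive sign follows from that order. Both subtractions reuse the values of Adamts1 and Adamts15 given above and are a description, not separate support.

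Of the 10 other ADAMTS genes 7 were measured (Adamts13, Adamts14 and Adamts17 had no probe set under the rule), and limma called none; 2 had an unadjusted p under 0.05, both higher. Adamts6, whose protein acts on microfibrils, was at 0.64, 0.040 and 0.14 in MFAP5 replicates 1, 2 and 3, against -0.51, -0.16 and -0.040 in the Control replicates, without overlap (difference 0.51 ± 0.18, adjusted p = 0.184). Adamts19 had a difference of 0.77 ± 0.33 (adjusted p = 0.238), and Adamts8, which encodes a relative of ADAMTS1 that also inhibits angiogenesis, of -0.40 ± 0.18 (SE, n = 3 per group; adjusted p = 0.263). Their list median was 0.29, which was 0.08 without MFAP5 replicate 2, 0.17 without Control replicate 2 and 0.14 with the spike-in covariate. The ADAMTS-like proteins share the repeats of the family and lack the protease domain, and papilin (Papln) is related to them. None of the 7 was called by limma, with 3 higher and 2 lower at an unadjusted p under 0.05. Differences were -0.55 ± 0.16 for Adamtsl2 (adjusted p = 0.108), 0.36 ± 0.11 for Thsd4, also called Adamtsl6 (adjusted p = 0.116), and 0.36 ± 0.13 for Adamtsl1 (adjusted p = 0.199), each gene value without overlap between the groups. For Thsd4, 1455262_at was at 0.68 and passed over all probe sets (limma adjusted p = 0.0389), while 1442552_at was at 0.03. The 3 probe sets of Adamtsl1 were at 0.28, 0.06 and 0.73, and on each the groups overlapped.

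**Figure D4:**
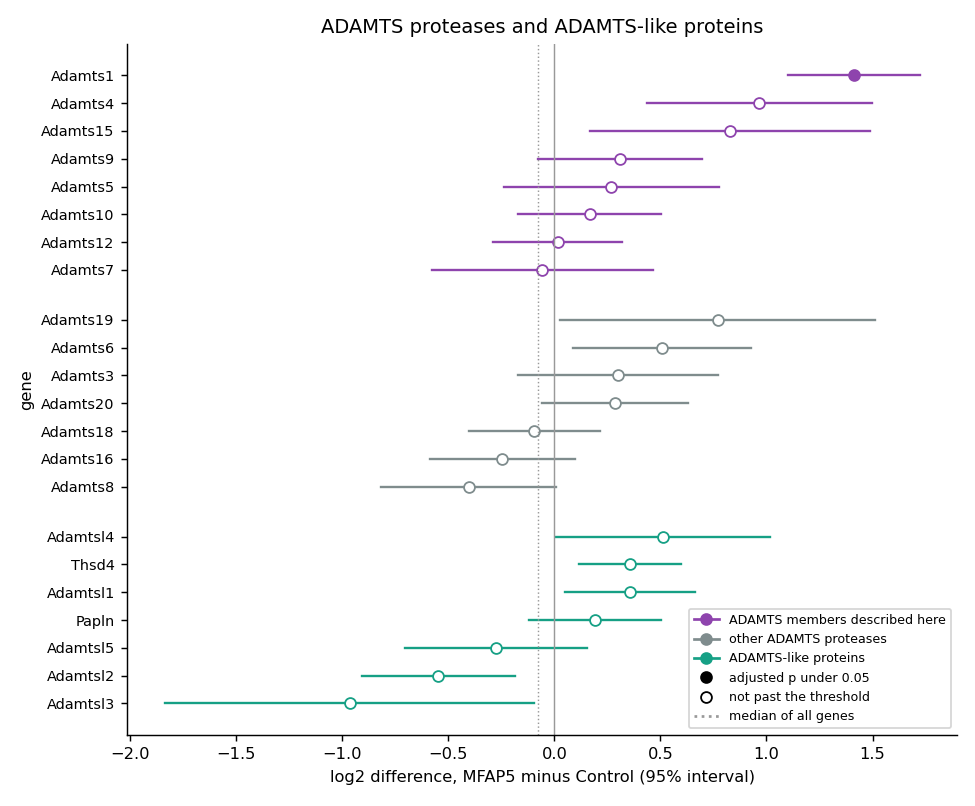
Log2 difference, MFAP5 minus Control, with its 95% interval (horizontal axis) for the 8 members, 7 other ADAMTS genes and 7 genes of ADAMTS-like proteins; filled points have a limma adjusted p under 0.05 and the dotted line is the median of all genes, -0.08. Adamts1 at 1.41 is the only filled point.

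The substrates were measured on the same arrays. Of 6 genes of chondroitin sulfate and small leucine-rich proteoglycans limma called none, with 1 higher and 1 lower at an unadjusted p under 0.05. Decorin (Dcn) had a difference of 0.36 ± 0.10 (adjusted p = 0.0853) and neurocan (Ncan) of -0.38 ± 0.09 (adjusted p = 0.0604), both without overlap, and aggrecan (Acan) of 0.16 ± 0.16 (SE, n = 3 per group; adjusted p = 0.599). Probe sets disagreed: 1441506_at of Dcn was at 0.70 and passed over all probe sets (adjusted p = 0.0143) while the other was at 0.02, and 1434679_at of Ncan was at -0.70 and passed (adjusted p = 0.0373) while the others were at -0.02 and -0.43. Versican (Vcan), the shared substrate of Adamts1, Adamts4, Adamts5, Adamts9 and Adamts15 products and named here after its values were seen, was at 0.060, 0.21 and -0.064 in MFAP5 replicates 1, 2 and 3, against -0.093, 0.13 and -0.068 in the Control replicates. Its groups overlapped widely, at a difference of 0.08 ± 0.11 (adjusted p = 0.728, 95% interval -0.18 to 0.34). The Vcan value is the mean of 8 probe sets, whose single differences are not shown here.

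Of 8 genes of other substrates 1 fell, against 2.79% of all genes called lower. That gene was Nid2, which encodes the basement membrane protein nidogen 2. Nid2 read -0.69, -1.03 and -0.41 in MFAP5 replicates 1, 2 and 3, against 0.48, 0.41 and 0.58 in the Control replicates. Every MFAP5 array was low, and the difference was -1.20 ± 0.16 (SE, n = 3 per group; limma adjusted p = 0.00473) from a single probe set. Nid1, which encodes nidogen 1 and with nidogen 2 is a known ADAMTS1 substrate, differed by 0.70 ± 0.21 (adjusted p = 0.115) with overlapping groups. Comp, the substrate of the ADAMTS7 and ADAMTS12 pair, read -1.27, -1.22 and 0.094 in MFAP5 replicates 1, 2 and 3, against -0.012, 0.22 and 0.012 in the Control replicates (difference -0.87 ± 0.32, adjusted p = 0.195). Without MFAP5 replicate 3 the difference of Comp was -1.32 and passed (adjusted p = 0.00136). Only MFAP5 replicates 1 and 2 were low, the same arrays in which Adamts15 and Adamts4 were high. Reln, which encodes the secreted guidance protein reelin, was at -0.46 ± 0.17 (adjusted p = 0.184), with probe sets 1449465_at and 1458020_at at -0.84 and -0.08.

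Of 9 genes of procollagens and their processing 1 fell, against 2.79% of all genes called lower. That gene was Pcolce2, an enhancer of procollagen C-proteinase. Pcolce2 read -0.62, -0.998 and -1.02 in MFAP5 replicates 1, 2 and 3, against 0.74, 0.70 and 0.62 in the Control replicates, and the difference was -1.56 ± 0.13 (SE, n = 3 per group; limma adjusted p = 7.08e-04) from a single probe set. The type I collagen genes Col1a2 and Col1a1 had differences of 0.36 ± 0.10 (adjusted p = 0.101) and 0.28 ± 0.12 (adjusted p = 0.257), and Col2a1 of -0.43 ± 0.15 (adjusted p = 0.164). Of the 3 probe sets of Col1a2, 1446326_at was at 0.94 and passed (adjusted p = 0.0142), and the others were at 0.09 and 0.04. The list median was 0.22, so the gene that fell went against most of its list. Nid2, Pcolce2 and the adipocyte markers were low in all 3 MFAP5 arrays, which are the whole group. Within it the adipocyte markers and Nid2 were least low in replicate 3, where Pcolce2 was lowest. The part of the adipocyte markers was not tested.

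Among 10 genes of inhibitors, clearance and activation limma called none, with 2 higher and 2 lower at an unadjusted p under 0.05. A2m, the broad protease inhibitor alpha-2-macroglobulin, read 1.47, 0.15 and 0.66 in MFAP5 replicates 1, 2 and 3, against -0.53, -0.15 and -0.35 in the Control replicates, without overlap (difference 1.10 ± 0.29, adjusted p = 0.0808). The receptor gene Lrp1 differed by 0.43 ± 0.13 (adjusted p = 0.122) and the syndecan gene Sdc4 by -0.36 ± 0.13 (SE, n = 3 per group, adjusted p = 0.181). The Lrp1 probe sets 1442849_at and 1448655_at were at 0.72 and 0.14. Timp3 and Furin, named after their values were seen, had differences of -0.23 ± 0.17 (adjusted p = 0.475) and 0.17 ± 0.12 (adjusted p = 0.448). Of 9 genes of fibulins and microfibril partners 8 were measured, Fbn1 having no probe set under the rule, and limma called none, with 1 lower at an unadjusted p under 0.05. That gene was Emilin1, an elastic fibre glycoprotein, at -0.56 ± 0.17 (adjusted p = 0.132); Mfap2 and Ltbp1 were at -0.33 ± 0.15 and -0.21 ± 0.10 (adjusted p = 0.281 and 0.301). Mfap5 itself, named after its values were seen, differed by 0.09 ± 0.12 (adjusted p = 0.697). Over the 55 measured genes of these 7 lists, from the other ADAMTS proteases to the microfibril partners, 0 were called higher and 2 lower on all arrays, and 5 higher and 8 lower without Control replicate 1, the array that stood apart. Of all 18193 genes, 0.759% were called higher and 2.79% lower on all arrays, and 5.33% were higher and 14.4% lower at an unadjusted p under 0.05. Without Control replicate 1 calls rose over all genes too, to 760 higher and 1914 lower. Among the named genes, Adamts8, Adamtsl2, Dcn, Ncan, Nid1, Col1a2, Col2a1, Sdc4 and Emilin1 passed without that array, and A2m passed without MFAP5 replicate 2 (1.41, adjusted p = 0.0201).

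**Figure D5:**
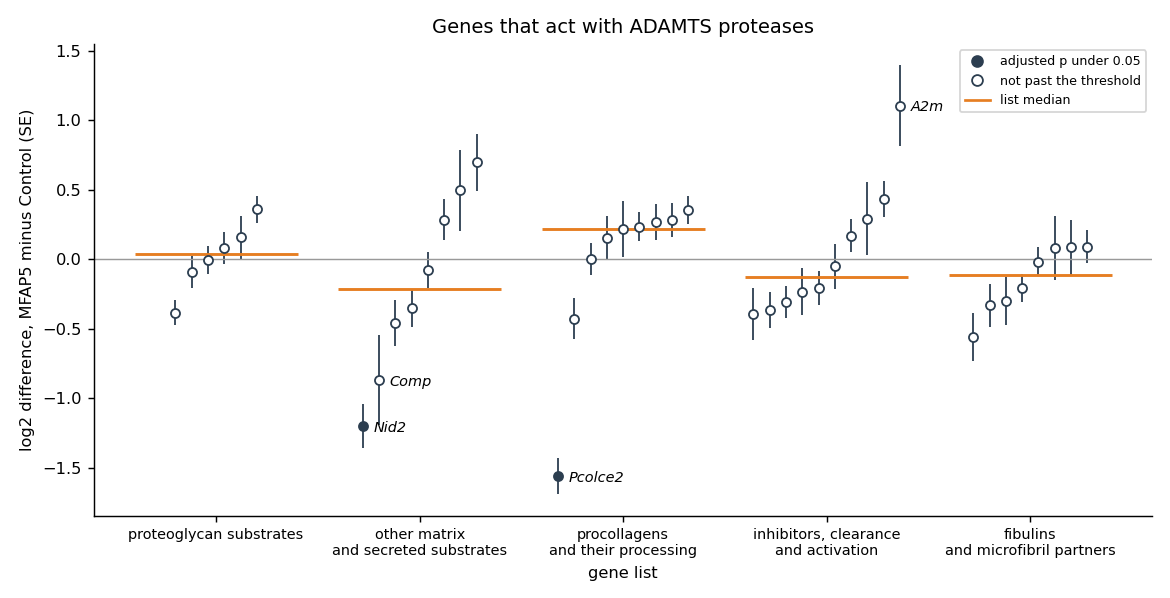
Log2 difference, MFAP5 minus Control, with its SE (vertical axis) for each measured gene of 5 lists of substrates, inhibitors and partners; filled points have a limma adjusted p under 0.05 and lines mark list medians. Nid2 at -1.20 and Pcolce2 at -1.56 are the only filled points, and the list medians lie between -0.21 and 0.22.

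The genes whose values over the 6 arrays were most like those of Adamts1 were Dusp5, Shox2 and Nfkbia, with root mean square differences of 0.18, 0.19 and 0.20 log2 units over 6 arrays, members of the family left aside. Dusp5, which encodes a nuclear phosphatase of ERK, read 0.37, 0.64 and 1.08 in MFAP5 replicates 1, 2 and 3, against -0.57, -0.70 and -0.37 in the Control replicates. Shox2, a homeobox gene, read 0.78, 0.29 and 1.13 in the MFAP5 replicates, against -0.48, -0.36 and -0.36 in the Control replicates. Nfkbia, the inhibitor of NF-kappa B, read 0.60, 0.32 and 0.86 in the MFAP5 replicates, against -0.39, -0.71 and -0.63 in the Control replicates. Their log2 differences were 1.24, 1.13 and 1.17. Since these genes were picked for values close to those of Adamts1 on the same 6 arrays, a difference between the groups follows from the choice and is given as a description, with no test.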

How the data were processed

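The arrays have 1 colour, and MAS5 is the tool named in the submitters' processing notes. How the authors scaled, logged and centred the signals is not stated there. The deposited numbers were taken as log2, with a median of 0 for every probe set, and a natural log cannot be told apart from it, which would make every fold too small. Without a level, no filter on dim probe sets and no detection call was possible. Precision is limited by the number of arrays.

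The 64 control probe sets were left out, leaving 45037, of which 34945 had 1 gene symbol, 932 several and 9160 were not listed in the platform annotation. No probe set with several symbols named a member. Symbols were updated through Entrez identifiers in a RefSeq gene table (GRCm38.p6). Differences, MFAP5 minus Control, were tested in R 4.3.3 with limma 3.58.1 (two-sided, moderated by eBayes without a trend) over all 18193 genes and over all 45037 probe sets, with Benjamini-Hochberg adjustment and a threshold of 0.05. Single values were compared by exact permutation. The procedure was tested on simulated data.

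The members and the gene lists were chosen with earlier results of these data known, and no set test was run. Named were all members, list genes past the threshold with up to 3 more of smallest p, up to 3 of each marker list, and the 3 genes most like each called member. Alternatives were quantile normalization, subtraction of array medians, an eBayes trend, array weights, a replicate block, a covariate from 14 spike-in probe sets (bioB, bioC, bioD), the probe set of largest SD, no moderation, a minimum difference of 1 and each sample left out. Averaging Adamts5 probe sets of 1 accession first was added after seeing the data.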

Additional observations from a re-analysis of the deposited data

How the results depend on the processing

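Adamts1 kept its direction under every alternative run and passed under all except the unmoderated statistic (1.41, adjusted p = 0.0921). The ADAMTS genes called higher, 1 by limma in the report, were 3 with array weights and 2 with the replicate block. They were 0 with the unmoderated statistic, where 2815 genes had an unadjusted p under 0.05, and between 1 and 3 with a sample left out. Calls over all genes moved too. Of 18193 genes, 138 were called higher in the report, 1125 with array weights, 0 without moderation and from 14 to 760 with a sample left out. Adamts4 passed with array weights (1.18, adjusted p = 0.00897), with the replicate block (0.97, adjusted p = 0.00722) and without MFAP5 replicate 3, with a range of 0.80 to 1.23 over samples left out. Adamts15 passed with array weights (0.84, adjusted p = 0.0478) and without MFAP5 replicate 3, with a range of 0.56 to 1.22. No member was called lower under any alternative.

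Adamts7 turned positive with quantile normalization (0.0048) and the spike-in covariate (0.15) and ran from -0.26 to 0.20 over samples left out. Adamts12 was at -7.73e-04 with the spike-in covariate and ran from -0.12 to 0.13, and Adamts10 was at -0.27 with its probe set of largest SD. None of these passed, and the causes were not tested. Averaging the Adamts5 probe sets of 1 accession first gave 0.31, also short of the threshold. ADAMTS probe sets called higher, 2 in the report, were 5 with array weights and 1 with the spike-in covariate or a minimum difference of 1. They were 0 without moderation and between 1 and 4 with a sample left out. Of all 45037 probe sets, 704 were called higher in the report, 3043 with array weights and from 90 to 2821 with a sample left out. Probe set 1427139_at of Adamts10 missed with the replicate block (adjusted p = 0.0526) and the spike-in covariate (0.0664). Among probe sets, 1441309_at of Adamts10 was at 0.012 with the spike-in covariate. Over samples left out the ranges that crossed 0 were -0.12 to 0.30 for 1439827_at of Adamts12, -0.12 to 0.051 for 1446666_at of Adamts12, -0.19 to 0.45 for 1422561_at of Adamts5, -0.18 to 0.41 for 1450658_at of Adamts5, -0.26 to 0.20 for 1452339_at of Adamts7 and -0.28 to 0.14 for 1437785_at of Adamts9. Wt1, a mesothelial marker, ran from -0.38 to 0.022.

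All genes called higher and lower, 138 and 508, were 1125 and 2879 with array weights, 48 and 316 with the spike-in covariate, 223 higher with the probe set of largest SD, 0 and 1 without moderation, 44 and 209 with a minimum difference of 1, and from 14 to 760 and 205 to 1914 with a sample left out. Probe sets called higher and lower, 704 and 774, were 3043 and 3825, 354 and 495 with the first 2 of these settings, 0 and 0 without moderation, 310 and 369 with the minimum difference, and from 90 to 2821 and 251 to 3369 with a sample left out. Lowest counts came without Control replicate 3 and highest without Control replicate 1. Related genes called higher and lower, 0 and 2, were 9 and 7 with array weights, 3 and 4 with the probe set of largest SD, 0 lower without moderation, and from 0 to 5 and 2 to 8 with a sample left out. The median difference of all genes was -0.08, -0.04 with quantile normalization and -0.04 with array medians subtracted.

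The labels name nothing but the number that same-numbered samples shared. Their deviations from the group means correlated at 0.21, 0.055 and 0.085 for replicates 1, 2 and 3, under 0.1 for 2 of the 3 pairs. Each MFAP5 array correlated best with its own number, as did Control replicates 1 and 3, while Control replicate 2 correlated better with MFAP5 replicate 3 (0.084). The lead was narrow for MFAP5 replicate 2 (0.048 with Control replicate 3) and for MFAP5 replicate 3 (0.084 with Control replicate 2). Deviations of 3 arrays from their own mean are also tied to each other, so these values cannot settle a pairing. The pattern is at most a hint from the data, resting mainly on replicate 1, and the labels give no shared litter, batch or day.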
